A study of Mus musculus with 132 samples.

Results

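The mouse globin genes encode the protein chains of hemoglobin. Of these, 7 were followed here across 23 poly(A)-minus RNA-seq libraries: Hbb-y, Hbb-bh1, Hbb-b1 and Hbb-b2 of the beta-like cluster on chromosome 7, and Hba-x, Hba-a1 and Hba-a2 of the alpha-like cluster on chromosome 11. They were taken by symbol from a count table of 25146 genes. Hba-a1 and Hba-a2 carried the same counts in 23 of 23 libraries, so the 7 genes gave 6 sets of counts, and they are written Hba-a below. The study asked how the CTCF-bound chromatin boundaries at Runx1, a transcription factor gene needed for blood formation, bear on gene expression while mouse embryonic stem cells (mESCs) turn into blood progenitors.

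All RNA came from the E14-TG2a mESC line (strain 129/Ola). The study compared wild-type cells with a pair of knockouts, named P1-CTCF-KO and P2-CTCF-KO. Each knockout carried a CRISPR/Cas9 deletion of the CTCF site beside the P1 or the P2 promoter of Runx1. Undifferentiated wild-type mESCs (day 0, feeder-free with LIF) gave 2 libraries, which are technical replicates of 1 culture. Flk1+ mesoderm (day 4, serum-free, by the Methods with BMP4 and then also bFGF and Activin-A) gave 3 libraries of each genotype. CD41+ hematopoietic progenitor cells (HPCs, day 7, grown from sorted Flk1+ cells with SCF and VEGF) gave 4 wild-type, 3 P1-CTCF-KO and 5 P2-CTCF-KO libraries. Each genotype was represented by 3 clones, which are wild-type B9.3, C6.1 and C8.1, P1-CTCF-KO E7.1, E7.2 and E9.1, and P2-CTCF-KO D10.1, D2.1 and E9.1. The E9.1 clones of the knockouts are different lines. The paper calls the clones independent, and by its supplement the P1-CTCF-KO sub-clones came from 2 targeting events. Which of the P1-CTCF-KO clones share an event is not given in the labels. In HPCs, B9.3, D10.1 and D2.1 had a second library, marked -2. By the Methods, HPCs were sorted as negative for Ter119, a surface marker of maturing red cells, and for CD45, so late erythroid cells were outside the gate.

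Hemoglobin pairs alpha-like with beta-like chains. In the mouse, the first red cells, made in the yolk sac, use the embryonic chains of Hba-x (zeta), Hbb-bh1 (beta-h1) and Hbb-y (epsilon-y), and Hbb-bh1 output gives way to Hbb-y as those cells mature. Red cells of the fetal liver and adult marrow use the adult chains of Hba-a1, Hba-a2, Hbb-b1 and Hbb-b2. GATA1, which binds GATA motifs, and KLF1, which binds CACCC motifs, act at globin promoters and at distal enhancers, which lie upstream of Hbb-y in the beta-like cluster and within the neighboring gene Nprl3 in the alpha-like cluster. Globin mRNA is polyadenylated, and a poly(A)-minus library leaves most of it out. The counts below therefore undercount the mature message by an amount that these data do not give. How much of them is unspliced or otherwise non-adenylated globin RNA was not tested.

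The promoter sequences are shown because accessible sites called in HPCs sat at some of them and not at others. They are from RefSeq (GRCm38.p6), run 5′ to 3′ on the gene's strand from 250 bases before the start to 50 bases after it, and carry 4 motifs in capitals, read on both strands. These are the GATA motif (letters GATAA), the KLF motif (letters CACCC), the CAAT box (letters CCAAT) and the TATA box (letters TATAA). An entry was found for 5 of the loci, and Hbb-b1 and Hbb-b2 of the count table are listed there as Hbb-bs and Hbb-bt. No entry was found for Hbb-bh1.
Hba-x, chr11:32276350-32276649, plus strand: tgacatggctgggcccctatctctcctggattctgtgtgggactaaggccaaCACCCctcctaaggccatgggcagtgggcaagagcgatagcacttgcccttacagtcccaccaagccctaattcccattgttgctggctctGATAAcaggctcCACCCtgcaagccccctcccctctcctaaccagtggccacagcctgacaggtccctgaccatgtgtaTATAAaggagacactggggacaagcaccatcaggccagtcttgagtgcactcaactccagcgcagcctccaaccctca
Hbb-y, chr7:103853158-103853457, minus strand: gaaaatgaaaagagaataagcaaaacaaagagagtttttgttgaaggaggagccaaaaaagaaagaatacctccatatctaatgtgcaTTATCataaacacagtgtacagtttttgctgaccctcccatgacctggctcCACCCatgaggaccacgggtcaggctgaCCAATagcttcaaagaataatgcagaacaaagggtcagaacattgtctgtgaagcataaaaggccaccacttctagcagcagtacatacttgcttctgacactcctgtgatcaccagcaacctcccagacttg
Hbb-bs (Hbb-b1), chr7:103827879-103828178, minus strand: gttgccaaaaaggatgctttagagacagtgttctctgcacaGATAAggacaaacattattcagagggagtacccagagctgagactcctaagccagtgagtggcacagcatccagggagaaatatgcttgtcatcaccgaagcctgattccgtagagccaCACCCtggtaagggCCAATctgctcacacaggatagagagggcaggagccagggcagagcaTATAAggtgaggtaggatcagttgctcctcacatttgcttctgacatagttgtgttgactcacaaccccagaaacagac
Hbb-bt (Hbb-b2), chr7:103813874-103814173, minus strand: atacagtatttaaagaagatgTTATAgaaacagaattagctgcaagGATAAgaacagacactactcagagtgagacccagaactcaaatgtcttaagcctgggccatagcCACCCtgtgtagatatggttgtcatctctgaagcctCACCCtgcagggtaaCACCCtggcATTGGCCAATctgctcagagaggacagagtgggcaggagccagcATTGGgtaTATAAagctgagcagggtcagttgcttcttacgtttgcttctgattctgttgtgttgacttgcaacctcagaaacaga
Hba-a1, chr11:32283422-32283721, plus strand: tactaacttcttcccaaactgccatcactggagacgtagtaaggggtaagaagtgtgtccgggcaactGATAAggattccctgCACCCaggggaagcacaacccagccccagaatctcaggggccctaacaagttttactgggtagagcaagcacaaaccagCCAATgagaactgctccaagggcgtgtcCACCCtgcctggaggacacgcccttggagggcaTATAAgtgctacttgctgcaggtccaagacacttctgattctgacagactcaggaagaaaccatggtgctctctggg

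The GATA motif occurred once in each of the 5 promoters. The KLF motif occurred at 2 places in Hba-x and Hba-a1, at 3 in Hbb-bt and at 1 in Hbb-y and Hbb-bs. The CAAT box was present in Hbb-y, Hbb-bs and Hba-a1 at 1 place each, in Hbb-bt at 3 places, and not in this window of Hba-x. By the letters TATAA, the TATA box was present in all of them but Hbb-y. Other TATA letters were not searched. The letters CATAAAA occur in the Hbb-y window, so it is not shown to lack a TATA box. Of 32851 RefSeq promoters of the same length, 25.4% held the GATA motif, 57.5% the KLF motif, 37.4% the CAAT box and 24.9% the TATA box, so each motif is common. The promoters of Hba-a1 and Hba-a2 were the same in 297 of the 297 bases that their windows share, once shifted by 3 bases.

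The sequences of 5 accessible sites called in HPCs away from the promoters follow, in mm9 and on the plus strand, with the same motifs in capitals. They are all the distal HPC sites within 50 kb that lie upstream of the clusters' embryonic starts, the side on which globin enhancers are known.
Site 6.1 kb upstream of Hbb-y, chr7:111007759-111007829: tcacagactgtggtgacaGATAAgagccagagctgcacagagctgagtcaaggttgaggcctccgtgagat
Site 7.9 kb upstream of Hbb-y, chr7:111009479-111009734: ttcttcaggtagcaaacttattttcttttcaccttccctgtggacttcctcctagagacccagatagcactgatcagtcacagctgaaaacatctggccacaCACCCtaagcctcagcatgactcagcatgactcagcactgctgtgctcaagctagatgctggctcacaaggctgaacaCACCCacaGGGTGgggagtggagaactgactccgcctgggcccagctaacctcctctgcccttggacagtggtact
Site 12.7 kb upstream of Hbb-y, chr7:111014315-111014486: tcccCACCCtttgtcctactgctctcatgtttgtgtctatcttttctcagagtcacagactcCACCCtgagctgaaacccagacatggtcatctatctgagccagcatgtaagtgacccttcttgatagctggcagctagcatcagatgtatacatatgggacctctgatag
Site 24.1 kb upstream of Hbb-y, chr7:111025725-111025886: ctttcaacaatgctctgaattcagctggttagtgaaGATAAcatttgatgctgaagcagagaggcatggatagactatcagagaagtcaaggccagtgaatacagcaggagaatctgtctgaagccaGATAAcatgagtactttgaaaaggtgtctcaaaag
Site 30.9 kb upstream of Hba-x, in an intron of Nprl3, chr11:32145686-32145799: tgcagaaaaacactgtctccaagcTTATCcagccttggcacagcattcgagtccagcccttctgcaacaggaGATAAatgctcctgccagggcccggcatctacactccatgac

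By the letters searched, GATAA and CACCC, each of the 5 sites held the GATA motif or the KLF motif and none held both. Other GATA letters were not searched. The letters GATAG occur in the sites 7.9 and 12.7 kb upstream of Hbb-y, so these are not shown to lack GATA sites. The GATA motif was at 1 place in the site 6.1 kb upstream of Hbb-y and at 2 places in the site 24.1 kb upstream of Hbb-y and in the Nprl3 site. The KLF motif was at 3 places in the site 7.9 kb upstream and at 2 in the site 12.7 kb upstream of Hbb-y. All HPC sites were taken at their centers over the same lengths of 71, 114, 162, 172 and 256 bases. In that order, the GATA motif was in 8.95, 13.8, 18.6, 19.5 and 26.5% of them. The KLF motif was in 16.8, 25.9, 35.4, 37.1 and 49.8%. The share of HPC sites with either motif or with both was not counted, so nothing is read from their split here.

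How far a count belongs to a single gene differed between the globins. Hbb-y (chr7:111000267-111001721), Hbb-bh1 (chr7:110990151-110991676) and Hba-x (chr11:32176599-32178115) each had an entry of their own, and 100%, 100% and 96.3% of the 40-base sequences in them occur at 1 place in mm9. In Hbb-b1 (chr7:110975045-110976443) and Hbb-b2 (chr7:110961037-110962437) only 313 of 1360 and 315 of 1362 of them did. The entries of Hba-a1 (chr11:32183671-32197303) and Hba-a2 (chr11:32183674-32197310) each span both adult alpha genes and Hbq1b, and within the adult alpha genes themselves 4.37% and 5.17% of the 40-base sequences occur at 1 place. How reads that match several places were counted is not given in the sources used here, so the counts of the adult genes are uncertain and cannot be divided between near-identical copies. The reference strain of mm9 also differs from 129/Ola, and the part of this in the counts was not tested.

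The libraries held 7805102 to 24406998 counts each. Ribosomal RNA and entries listed at several loci took 68.1 to 91.0% of them, which left 878966 to 7748566 for all other genes. Values are given as counts, or as counts-per-million (CPM) of the library size scaled over the 23 libraries by the trimmed mean of M-values (TMM). The labels were checked against marker genes: 4 mESC markers, Pou5f1 among them, summed to 19.02 and 22.985 CPM in the undifferentiated libraries and to at most 3.72 CPM in mesoderm. Kdr, which encodes Flk1, stood at 27.2 ± 10.5 CPM (SD, n = 3) in wild-type mesoderm, and Itga2b, which encodes CD41, at 28.4 ± 10.8 CPM (SD, n = 4) in wild-type HPCs. Ptprc, which encodes CD45, had 5 counts over the 4 wild-type HPC libraries. The deletions removed a binding site and no gene, so the counts do not check the knockout labels.

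Globin RNA appeared with the HPC stage. Over the 12 HPC libraries Hba-x had 6656 counts, Hbb-bh1 4757, Hbb-y 1331, Hba-a 295, Hbb-b1 82 and Hbb-b2 3. Over the 9 mesoderm libraries Hbb-bh1 had 8 counts, Hba-x 3 and Hbb-y 1, and Hba-a, Hbb-b1 and Hbb-b2 were at 0. The 12 mesoderm counts were spread unevenly, with 8 of them in wild-type B9.3 (5 of Hbb-bh1, 2 of Hba-x and 1 of Hbb-y). The 2 undifferentiated libraries held 1 count of Hba-a each and no count of any other globin here. The Hba-a entries also take in Hbq1b, which had 1 count over these 2 libraries.

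**Figure D1:**
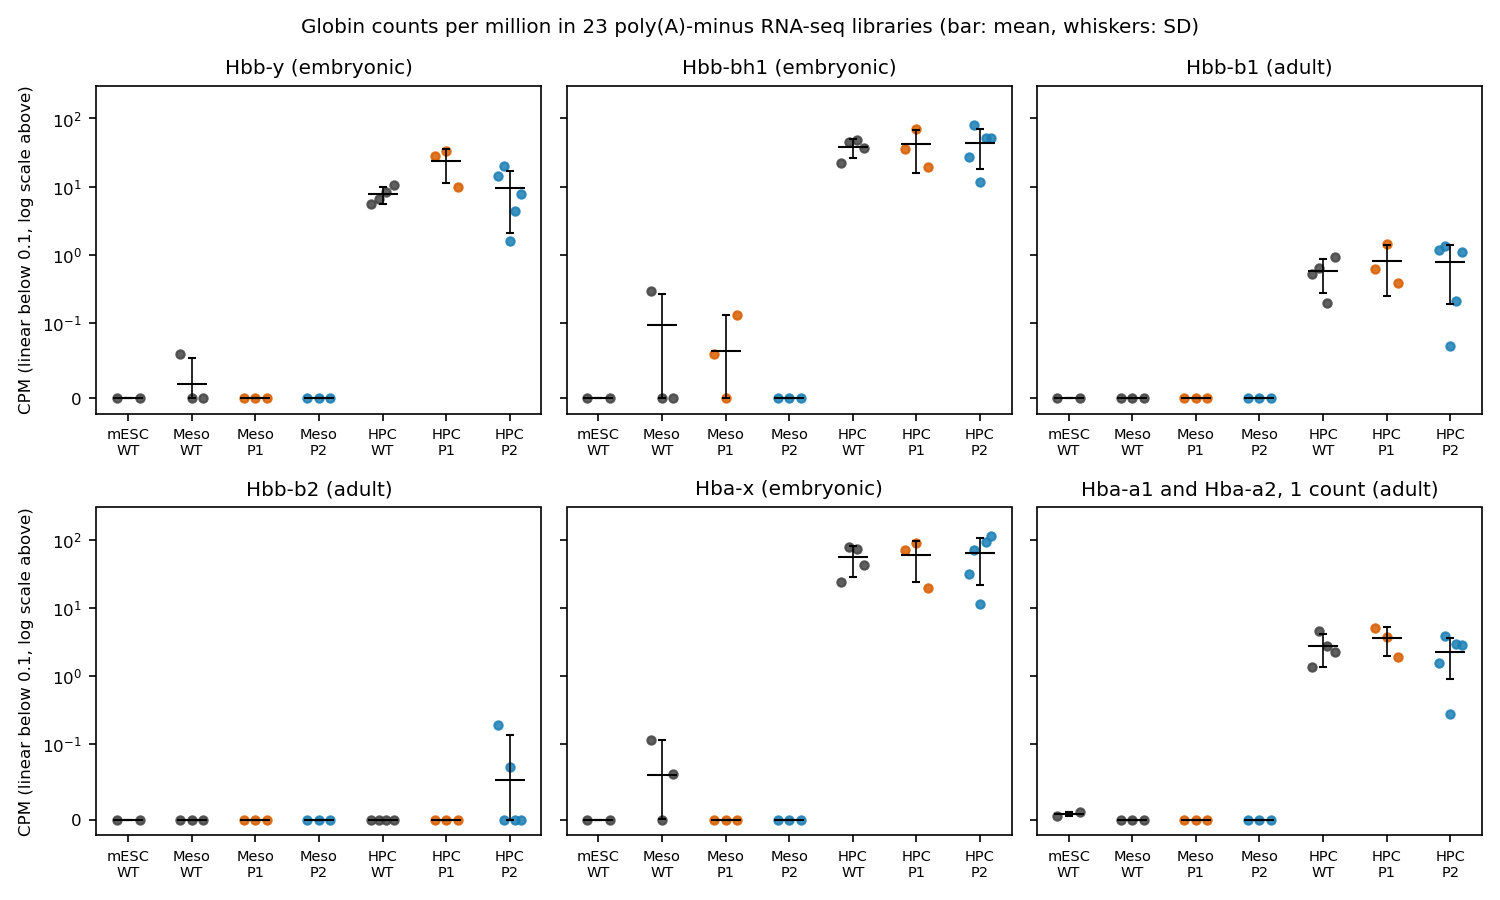
CPM of each globin entry in every library, with one panel for each entry, the 7 groups along the x axis (mESC, undifferentiated; Meso, Flk1+ mesoderm; HPC, CD41+ HPCs; WT, wild type; P1 and P2, the knockouts) and a y axis that is linear below 0.1 CPM and logarithmic above. Points are libraries, horizontal bars are means and whiskers are 1 SD, ended at 0. The HPC libraries of Hba-x, Hbb-bh1 and Hbb-y sit between 1.60 and 115 CPM, above every mesoderm library, and Hbb-b2 is at 0 in 10 of 12 HPC libraries.

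In wild-type HPCs against wild-type mesoderm, all 5 tested sets of counts (Hbb-y, Hbb-bh1, Hbb-b1, Hba-x and Hba-a) were higher. A gene was called at an adjusted p under 0.05 (edgeR quasi-likelihood test, Benjamini-Hochberg adjustment) with an absolute log2 fold change above 1, and 10.8% of the 12899 genes tested were called higher by this rule. These genes passed the filter on low counts through their HPC libraries alone and therefore had to differ between the stages. Hbb-b2 had too few counts to be tested.

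Hba-x, the embryonic alpha-like gene, went from 3 counts in wild-type mesoderm to 24.2, 80.1, 74.5 and 42.8 CPM in the HPC libraries B9.3, B9.3-2, C6.1 and C8.1. On summed counts this was a ratio of 734, with a 95% counting interval of 251 to 3563, and the fitted log2 fold change was 9.55 ± 0.69 (SE, edgeR adjusted p = 1.6e-05). Hbb-bh1, the beta-like chain of early embryonic red cells, reached 22.3, 45.4, 48.7 and 37.1 CPM in the same order. Its ratio was 314 (134 to 969), against 5 mesoderm counts that all lay in B9.3, and its log2 fold change 8.32 ± 0.65 (adjusted p = 1.9e-05). In both genes B9.3 was the lowest HPC library, and it still stood far above every mesoderm library.

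Hbb-y, the beta-like chain of later embryonic red cells, reached 5.50, 6.52, 8.18 and 10.6 CPM. With 1 count in mesoderm, its ratio was 329 (58.6 to 13022), and its log2 fold change was 8.17 ± 0.60 (adjusted p = 1.6e-05). The wild-type libraries lay closer together for Hbb-y than for Hba-x, with an SD of 2.22 around a mean of 7.70 CPM against 26.5 around 55.4 CPM.

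The adult genes were far lower. Hba-a stood at 1.37, 4.60, 2.76 and 2.25 CPM in wild-type HPCs, and Hbb-b1, a major adult beta chain, at 0.515, 0.640, 0.197 and 0.917 CPM. Wild-type mesoderm had no count of either, so the rise was at least 36.1-fold for Hba-a and at least 8.09-fold for Hbb-b1, against a floor of 3 counts over the group. Their fitted changes (adjusted p = 0.00024 for Hba-a and 0.0065 for Hbb-b1) lean on the prior count and are no measure of size. Hbb-b2 had 0 counts in the 4 wild-type HPC libraries, which allows up to 3 over the group. In each of the 5 tested sets every wild-type HPC library stood above every wild-type mesoderm library, which held for 16.3% of the 12899 genes tested.

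The knockout clones also had globin counts almost only in HPCs. Here too the tested sets passed the filter through their HPC libraries, so the calls are no support of their own. In P1-CTCF-KO, 5 of 5 tested sets were called higher in HPCs than in mesoderm, where 16.6% of 9170 genes were called higher and 32.7% in either direction. In P2-CTCF-KO it was 5 of 5, where 16.5% were called higher and 28.2% in either direction. Hbb-bh1 rose by a ratio of 841 (287 to 4083) in P1-CTCF-KO and at least 536-fold in P2-CTCF-KO, whose mesoderm had no globin count at all. Hba-x rose at least 1144-fold and at least 758-fold, and Hbb-y at least 444-fold and at least 119-fold, in the same order. For Hba-a the bounds were 64.2-fold and 27.4-fold, and for Hbb-b1 16.5-fold and 9.36-fold. Whether the stage effect differed from wild type was tested as an interaction, and 0 of 5 tested sets were called for either knockout, where edgeR called 0% of 9170 genes for P1-CTCF-KO and 0.0218% for P2-CTCF-KO. None of the 5 was under an unadjusted p of 0.05, and DESeq2 called 0 as well. With 0 to 5 mesoderm counts in a group, these interactions had little to compare.

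Between wild-type mesoderm and undifferentiated mESCs, Hbb-bh1 alone was called, with a log2 fold change of 5.29 ± 1.45 (edgeR adjusted p = 0.022), beside 10.8% of the 12899 genes called higher. The 5 mesoderm counts behind it were all in B9.3, and without that library 0 globin genes were called. Hba-x had a log2 fold change of 4.59 (adjusted p = 0.052) and Hbb-y of 3.13 (adjusted p = 0.12). The undifferentiated libraries are technical replicates, and by the Methods their RNA alone was depleted of ribosomal RNA, so stage and library preparation cannot be told apart here.

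Per length, the embryonic genes led in every HPC library. Over the 12 HPC libraries the mean level was 39.8 ± 22.0 CPM per kb (SD) for Hba-x, 27.4 ± 13.5 for Hbb-bh1, 8.58 ± 6.71 for Hbb-y and 0.511 ± 0.336 for Hbb-b1. Hba-a followed at 0.203 ± 0.103 CPM per kb of an entry that is mostly intergenic, and Hbb-b2 at 0.0157 ± 0.0412. Hba-x exceeded Hbb-bh1 in 11 of 12 libraries, with means closer than their SDs, and D10.1-2 was the exception. Hbb-bh1 exceeded Hbb-y in 12 of 12 libraries, and Hbb-y exceeded Hbb-b1 in 12 of 12. The order of Hbb-b1 and Hba-a, which held in 10 of 12 libraries, rests on the length of the entries, 1399 bases for Hbb-b1 and 13633 for Hba-a1. Before division by length the means stood the other way, at 0.715 CPM for Hbb-b1 and 2.77 for Hba-a. The entries also differ in how much of them maps to 1 place, so no order of these genes is read.

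Between the genotypes in HPCs, no globin gene was called. In P1-CTCF-KO against wild type, in P2-CTCF-KO against wild type and in P2-CTCF-KO against P1-CTCF-KO, 0 of 5 tested sets passed, and edgeR called 0% of the 7422 genes tested in each. DESeq2 called 0 globin genes too. At an unadjusted p under 0.05 there was 1 globin gene in the first comparison, 0 in the second and 1 in the third, and it was Hbb-y both times. Over all genes these numbers were 260, 145 and 650.

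Of the 5 tested sets, Hbb-y differed most between P1-CTCF-KO and the other genotypes. P1-CTCF-KO HPCs had 27.8 CPM in E7.1, 33.3 in E7.2 and 9.75 in E9.1, and the mean of 23.6 ± 12.3 CPM (SD, n = 3) was 3.07 times that of wild type. E7.1 and E7.2 lay above every wild-type library, and E9.1 fell between C6.1 and C8.1, so the groups overlapped. The log2 fold change was 1.63 ± 0.63 (SE). In edgeR its unadjusted p was 0.0234 and its adjusted p = 0.91, and the adjusted p ranged from 0.74 to 1 over 14 other settings. P2-CTCF-KO HPCs had 14.4 CPM in D10.1, 20.1 in D10.1-2, 1.60 in D2.1, 4.43 in D2.1-2 and 7.71 in E9.1, a mean of 9.65 ± 7.54 (n = 5). They spanned the wild-type range on both sides. Their log2 fold change was 0.32 ± 0.57 against wild type (edgeR adjusted p = 1) and fell by 1.31 ± 0.59 against P1-CTCF-KO (unadjusted p of 0.0459, edgeR adjusted p = 0.53).

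The other globins showed smaller differences with wide errors. Hbb-bh1 stood at 36.1, 71.2 and 19.5 CPM in P1-CTCF-KO E7.1, E7.2 and E9.1, and at 26.7, 80.3, 11.6, 51.2 and 51.1 in P2-CTCF-KO D10.1, D10.1-2, D2.1, D2.1-2 and E9.1. Hba-x stood at 72.2, 90.2 and 19.8 CPM in the P1-CTCF-KO libraries and at 31.6, 70.1, 11.6, 92.6 and 115 in those of P2-CTCF-KO. For both genes each knockout group had a library below and a library above the whole wild-type range. The mean of Hbb-bh1 in P1-CTCF-KO was 1.10 times that of wild type and that of Hba-x 1.10 times, and both turned to 0.836 and 0.803 when scaled to the counts outside ribosomal RNA and several-loci entries, so no direction holds for them. For Hbb-y the same change of scale gave 2.22.

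Hba-a was at 5.07, 3.80 and 1.90 CPM in P1-CTCF-KO and at 1.55, 3.84, 0.279, 2.96 and 2.82 in P2-CTCF-KO. Hbb-b1 was at 0.608, 1.45 and 0.380 CPM in P1-CTCF-KO and at 1.16, 1.34, 0.0698, 0.211 and 1.09 in P2-CTCF-KO. Both adult sets overlapped between all genotypes. The 3 counts of Hbb-b2 lay in P2-CTCF-KO D10.1 (2 counts) and D2.1 (1 count). Apart from Hbb-y, log2 fold changes between genotypes ran from a fall by 0.67 to a rise of 0.56 with SEs of 0.48 to 0.81, so the errors were as large as most of the differences. In mesoderm no globin gene had counts enough to be tested between genotypes, in comparisons that called 0% (P1-CTCF-KO) and 0.0342% (P2-CTCF-KO) of 8778 genes.

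**Figure D2:**
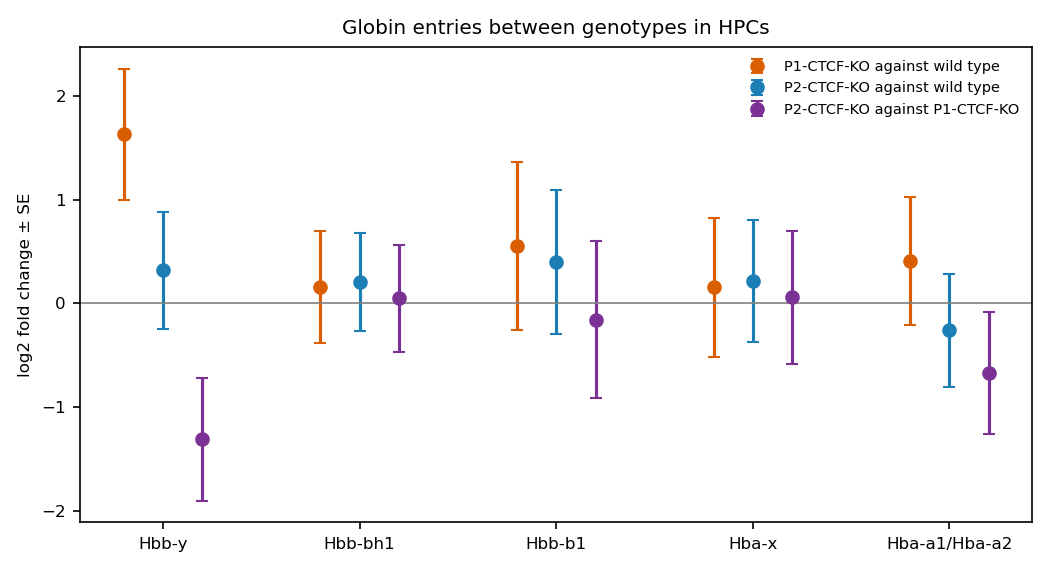
Log2 fold changes (y axis) of the 5 tested globin entries (x axis) between genotypes in HPCs, from the edgeR fit of 12 libraries, with bars of 1 SE. Hbb-y in P1-CTCF-KO against wild type stands at 1.63 and Hbb-y in P2-CTCF-KO against P1-CTCF-KO at -1.31, and the other points lie between -0.67 and 0.56.

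The mix of the embryonic beta-like chains differed between libraries by more than counting error. Hbb-y made up 19.8% of the counts of Hbb-y and Hbb-bh1 in wild-type B9.3 (exact 95% binomial interval 15.6 to 24.5), 12.6% in B9.3-2 (9.50 to 16.2), 14.4% in C6.1 (11.6 to 17.5) and 22.2% in C8.1 (18.9 to 25.8). In P1-CTCF-KO it made up 43.5% in E7.1 (37.9 to 49.2), 31.9% in E7.2 (28.9 to 35.0) and 33.3% in E9.1 (27.3 to 39.8). In P2-CTCF-KO it made up 35.1% in D10.1 (30.5 to 39.8), 20.0% in D10.1-2 (17.6 to 22.6), 12.1% in D2.1 (7.83 to 17.6), 7.97% in D2.1-2 (5.80 to 10.6) and 13.1% in E9.1 (10.4 to 16.3). Every P1-CTCF-KO library lay above every wild-type library, whereas the P2-CTCF-KO libraries ran from below the wild-type range into that of P1-CTCF-KO. The means were 17.2 ± 4.51% in wild type, 36.2 ± 6.33% in P1-CTCF-KO and 17.7 ± 10.6% in P2-CTCF-KO (SD, n = 4, 3 and 5). With the libraries of a clone summed, the shares were 15.8, 14.4 and 22.2% in wild type, 43.5, 31.9 and 33.3% in P1-CTCF-KO, and 24.4, 9.07 and 13.1% in P2-CTCF-KO. The share is given as a description with no test, and the intervals cover counting error only. How often libraries of these groups separate in this way over other pairs of genes was not counted. The 2 libraries of D10.1 alone stood at 35.1 and 20.0%. The adult and alpha-like shares given below overlapped between wild type and P1-CTCF-KO.

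**Figure D3:**
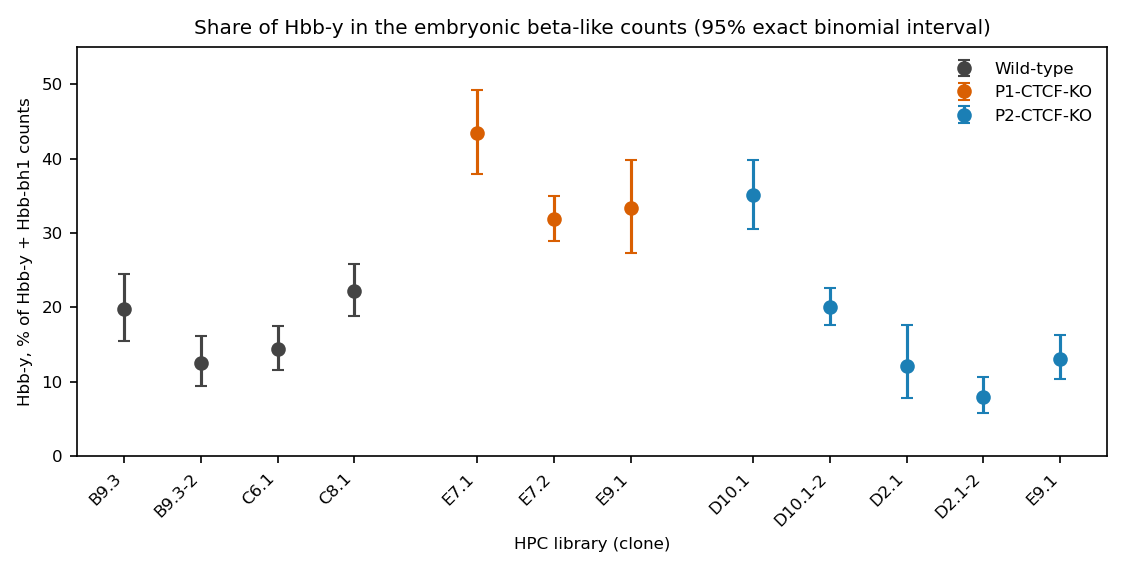
Share of Hbb-y in the summed counts of Hbb-y and Hbb-bh1 (y axis, percent) in each of the 12 HPC libraries (x axis, by clone, colored by genotype), with exact 95% binomial intervals. The 3 P1-CTCF-KO libraries lie at 31.9 to 43.5%, above the wild-type libraries at 12.6 to 22.2%, and P2-CTCF-KO spreads from 7.97 to 35.1%.

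Libraries of the same clone also differed. The second library had the lower Hbb-y share in all 3 clones that had one, at 12.6 against 19.8% in B9.3, 20.0 against 35.1% in D10.1 and 7.97 against 12.1% in D2.1. At the same time all the embryonic genes were higher in it. Hba-x was higher 3.31-fold in B9.3, 2.22-fold in D10.1 and 7.95-fold in D2.1, and Hbb-bh1 2.03-fold in B9.3 and 4.40-fold in D2.1, with D10.1 in between. Hbb-y moved least, by 1.19-fold, 1.39-fold and 2.76-fold. The first D2.1 library was the lowest HPC library in 5 of the 5 tested sets. It was also the highest HPC library in summed markers of endothelium (64.7 CPM, against 9.29 to 41.8 in the others), of Flk1+ mesoderm (18.3 against 2.76 to 11.7) and of mESCs (1.46 against 0 to 0.435). The part of these other cell types in its low globin levels was not tested. What sets the second libraries apart is not given in the labels, so these ratios are of 2 libraries and not of conditions.

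Adult chains took a small part of the counts in HPCs of every genotype. Hbb-b1 and Hbb-b2 together made up 0.345% (exact interval 0.0419 to 1.24) of the beta-like counts in wild-type C6.1, the lowest library, and 3.19% (1.75 to 5.29) in P2-CTCF-KO D10.1, the highest. The group means were 1.32 ± 0.714% in wild type, 1.20 ± 0.226% in P1-CTCF-KO and 1.55 ± 1.05% in P2-CTCF-KO. Divided by the positions of each entry whose 40-base sequence is unique in mm9, a scale chosen after seeing the data, they became 5.85 ± 3.09, 5.36 ± 0.985 and 6.75 ± 4.31%, still a minor part. Hba-a took 2.34 to 8.77% of the alpha-like counts, a share that was not rescaled. Of the 40-base sequences inside Hba-a1 and Hba-a2, 4.37% and 5.17% occur at 1 place in mm9, against 96.3% in Hba-x. The adult part of alpha-like RNA is therefore not given by these counts. Alpha-like entries together took 42.1 to 66.3% of all globin counts.

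Of the other globin genes, 9 of the 11 listed had an entry. Hbb-bs and Hbb-bt repeated the counts of Hbb-b1 and Hbb-b2 in 23 of 23 libraries. Hbb-bh2, a further beta-like gene beside Hbb-bh1, had 16 counts in wild-type, 7 in P1-CTCF-KO and 25 in P2-CTCF-KO HPCs and 0 in mesoderm. It was called higher in HPCs of P1-CTCF-KO (edgeR adjusted p = 0.046) and P2-CTCF-KO (adjusted p = 0.025) and was not tested in wild type. It too passed the filter through HPC libraries alone and had to differ. Hbq1b, the theta-like gene that lies inside the Hba-a entries, had 12, 6 and 9 counts in HPCs of the 3 genotypes in that order. A read in overlapping entries is counted for each, so part of the 107, 74 and 114 Hba-a counts can be reads of Hbq1b. They were not subtracted. Hbq1a had 2 HPC counts in all. Mb, Cygb, Ngb and Adgb, which encode globins of muscle and other tissues, had at most 3 counts in HPCs of any genotype.

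Other genes of red cells also rose. Among 11 genes of heme synthesis, which supplies the oxygen-binding group of hemoglobin, 10 were called higher in wild-type HPCs than in mesoderm and 0 lower, with a median log2 fold change of 2.82, against 10.8% higher, 12.5% lower and a median of -0.01 over all genes tested. Alas2, which starts heme synthesis in red cells, rose by a log2 fold change of 8.43 ± 0.71 (edgeR adjusted p = 2.9e-05), Fech, which inserts the iron, by 3.23 ± 0.31 (3.5e-05), and the mitochondrial iron importer Slc25a37 by 3.33 ± 0.38 (8.8e-05). The exception was Alas1, the form found in all tissues, at -0.63 (adjusted p = 0.41), which is named here after its value was seen. In P1-CTCF-KO 8 of 11 were called higher, beside 16.6% of all genes, and in P2-CTCF-KO 10 of 11, beside 16.5%. In the comparisons within mesoderm, 6 of the 11 had counts enough to be tested. The others had little in mesoderm to compare with, so their calls are no support of their own.

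Of 15 tested genes of the red cell membrane and of iron handling, 14 were called higher in wild-type HPCs (10.8% of all genes) and 0 lower, with a median log2 fold change of 5.08. Sptb, which encodes a spectrin under the red cell membrane, rose by 6.05 ± 0.54 (edgeR adjusted p = 2.5e-05). Its anchor Ank1 rose by 8.42 ± 0.75 (2.5e-05). In each knockout 13 of 14 were called higher, beside 16.6% of all genes in P1-CTCF-KO and 16.5% in P2-CTCF-KO. Within mesoderm only 5 genes of this list had counts enough to be tested, so the calls of the others are no support of their own.

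Among 20 regulators of globin genes, 9 were called higher (10.8% of all genes) and 0 lower (12.5%) in wild-type HPCs, with a median log2 fold change of 0.71. Gata1, the leading activator of erythroid genes, rose by 6.14 ± 0.49 (edgeR adjusted p = 2.2e-05) to 3.54 ± 0.584 CPM (SD, n = 4). Its partner Tal1, present in mesoderm at 2.77 ± 0.345 CPM, rose by 1.94 ± 0.21 (6e-05). Gfi1b, a repressor needed to form red cells and platelets, rose with an adjusted p = 0.00018 in edgeR, and Nfe2, which acts at the beta-globin enhancers, rose by 4.84 ± 0.65 (0.00026). Klf1 rose by 3.80 ± 0.95 (adjusted p = 0.012) and Bcl11a, a repressor of embryonic beta-like genes, stood at 0.55 ± 0.50 (adjusted p = 0.46), both named after their values were seen. In P1-CTCF-KO 10 of 20 were called higher and 1 lower, beside 16.6% and 16.1% of all genes. In P2-CTCF-KO 12 were called higher and 0 lower, beside 16.5% and 11.7%. In the comparisons within mesoderm, 15 of the 20 had counts enough to be tested. Over wild-type mesoderm Gata1 had 2 counts, Klf1 3, Nfe2 5 and Gfi1b 8, so their calls are no support of their own. No gene of these 3 lists was called between genotypes in HPCs.

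Megakaryocyte markers, those of platelet-forming cells, also rose. All 7 listed were called higher in wild-type HPCs (10.8% of all genes), as were 7 of 7 in P1-CTCF-KO (16.6%) and 6 of 7 in P2-CTCF-KO (16.5%). Only 1 of the 7 had counts enough to be tested within mesoderm, so the calls of the others are no support of their own. Their summed level ran from 27.6 to 85.5 CPM in wild type, 44.3 to 121 in P1-CTCF-KO and 12.1 to 129 in P2-CTCF-KO. The 5 myeloid genes listed summed to 0.592 to 2.68 CPM over all HPC libraries. In bulk RNA, fewer globin-expressing cells and less globin RNA in each cell cannot be told apart.

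Summed globin levels moved with a sum of other erythroid markers over the HPC clones. The sum does not stand for each marker in it, as the values for single markers given below show. In HPCs, 5 erythroid markers other than globins (Epor, Klf1, Alas2, Slc4a1 and Rhag) summed to 17.0 to 40.0 CPM in wild-type, 10.5 to 41.2 in P1-CTCF-KO and 6.98 to 56.5 in P2-CTCF-KO libraries. The globin entries summed to 53.9 to 137, 51.3 to 200 and 25.3 to 178 CPM. The lowest library of both sums was P2-CTCF-KO D2.1, with 6.98 and 25.3 CPM, and its second library D2.1-2 had 56.5 and 151 CPM. Over the 9 clones, on a log2 scale, Pearson's r was 0.868 and Spearman's rho 0.783. Without the 2 clones farthest from the median marker level they were 0.757 and 0.571, so the ranking rests partly on those clones. The clones share a line, a protocol and a scaling, and the values are a description only. The part that the number of erythroid cells in each library had in the globin levels was not tested.

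**Figure D4:**
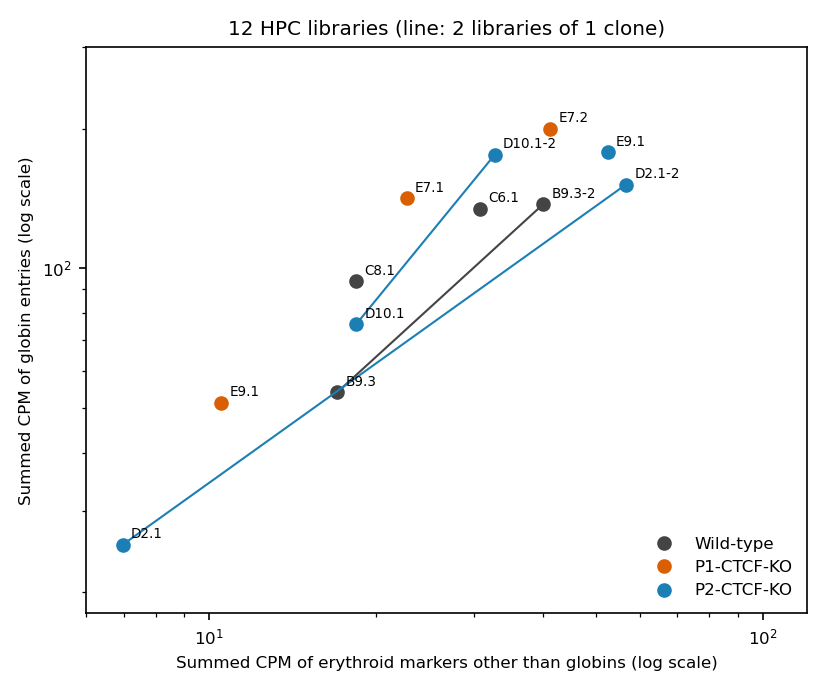
Summed CPM of the globin entries (y axis, log scale) against summed CPM of 5 erythroid markers other than globins (x axis, log scale) in the 12 HPC libraries, colored by genotype, with a line joining libraries of 1 clone. Both sums are lowest in P2-CTCF-KO D2.1 (25.3 and 6.98 CPM), and each second library lies above and to the right of the first.

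Hba-x, the globin gene of highest level, was used to ask which genes had the most similar pattern over the 9 HPC clones. By Pearson's r of log2(CPM + 1) over 7421 genes, these were Pfkfb4 (0.956), Selenot (0.948), Slc4a1 (0.935), Adra2b (0.932) and Creg1 (0.930). Slc4a1 encodes band 3, the anion exchanger of red cells. Of the other markers in the erythroid sum above, Alas2 stood at 0.803, Klf1 at 0.508, Epor at 0.294 and Rhag at 0.0172. Slc4a1 and Alas2 also had the highest mean CPM of the markers in that sum, so they weigh most in it. How each marker alone followed the summed globin level was not tested. Hbb-bh1 stood at 0.871, in place 25, and Hba-a at 0.673. Hbb-y stood at 0.394, in place 1372, so its pattern over the clones was less like that of Hba-x than that of Hbb-bh1 was.

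Accessible sites at the globin clusters were read from ATAC-seq peaks called on merged reads, 4 libraries for wild-type mesoderm and 2 for wild-type HPCs, without replicates or heights. By the Methods, these cells carried a Runx1-Venus allele and a reporter transgene of a Runx1 enhancer. In HPCs a peak lay at the promoter (250 bases before to 50 after the start) of Hba-x (chr11:32176493-32176612), Hbb-y (chr7:111001744-111001810), Hbb-b1 (chr7:110976480-110976574) and Hba-a2 (chr11:32196351-32196534). They ran from 107 bases before to 12 after the start in Hba-x, from 89 to 23 bases before it in Hbb-y and from 132 to 38 before it in Hbb-b1. By the letters searched, the peak of Hba-x took in the GATA motif, the KLF motif and the TATA box at 1 place each. That of Hbb-b1 took in the KLF motif and the CAAT box, and that of Hbb-y the CAAT box alone. No HPC peak lay at the promoters of Hbb-bh1, Hbb-b2 and Hba-a1, and no mesoderm peak at any of the 7. For background, 30.7% of 24843 promoters had an HPC peak, 46.3% a mesoderm peak and 0.869% an HPC but no mesoderm peak.

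The peaks and the counts did not run in parallel for each gene. Hbb-bh1, with 4757 counts in HPCs, had no peak at its promoter, while Hbb-b1, with 82 counts, had one. The counts of Hbb-b1 are uncertain, since little of its entry maps to 1 place. By the Methods the HPC peaks come from 1 experiment, so a missing peak does not show a closed promoter. The Hba-a2 peak holds 0 of 145 40-base sequences that occur at 1 place in mm9, so it cannot be assigned to Hba-a2 over Hba-a1. The peaks at Hbb-y, Hbb-b1 and Hba-x are unique at 100% of their positions.

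The mesoderm list is the longer one, with 76766 peaks against 29037 in HPCs. Over the whole lists, 69.4% of the HPC peaks overlapped a mesoderm peak by at least 1 base, and 25.8% of the mesoderm peaks an HPC peak. Within 50 kb of the beta-like cluster there were 8 HPC and 6 mesoderm peaks, of which 2 of each overlapped, at 7.9 and 24.1 kb upstream of Hbb-y. HPC peaks without a mesoderm peak lay 6.1 and 12.7 kb upstream of Hbb-y, at the promoters of Hbb-y and Hbb-b1, and 41.6 and 44.1 kb downstream of the Hbb-y start, beyond Hbb-b2. In mesoderm a peak lay 1.6 kb upstream of the Hbb-bh1 start, where HPCs had none. The other genes listed within 50 kb were olfactory receptor genes (Olfr64, Olfr66, Olfr67, Olfr68 and Olfr69) beside the beta-like cluster and Mpg and Nprl3 beside the alpha-like one. Around the alpha-like cluster there were 3 HPC and 8 mesoderm peaks with no overlap. The HPC peaks were those at Hba-x, at Hba-a2 and in the Nprl3 intron, the last 30.9 kb upstream of Hba-x.

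CTCF peaks of 416B cells, a mouse blood progenitor line, numbered 4 around the beta-like and 12 around the alpha-like cluster. None lay at the promoter of any of the 7 genes and none overlapped an HPC peak, whereas 1 of the 6 mesoderm peaks at the beta-like and 4 of the 8 at the alpha-like cluster overlapped one. Over the whole lists, 19.9% of HPC peaks and 18.4% of mesoderm peaks overlapped a CTCF peak, and no difference is read from the few peaks here. These cells are of another line than the HPCs, so the positions are set side by side only.

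**Figure D5:**
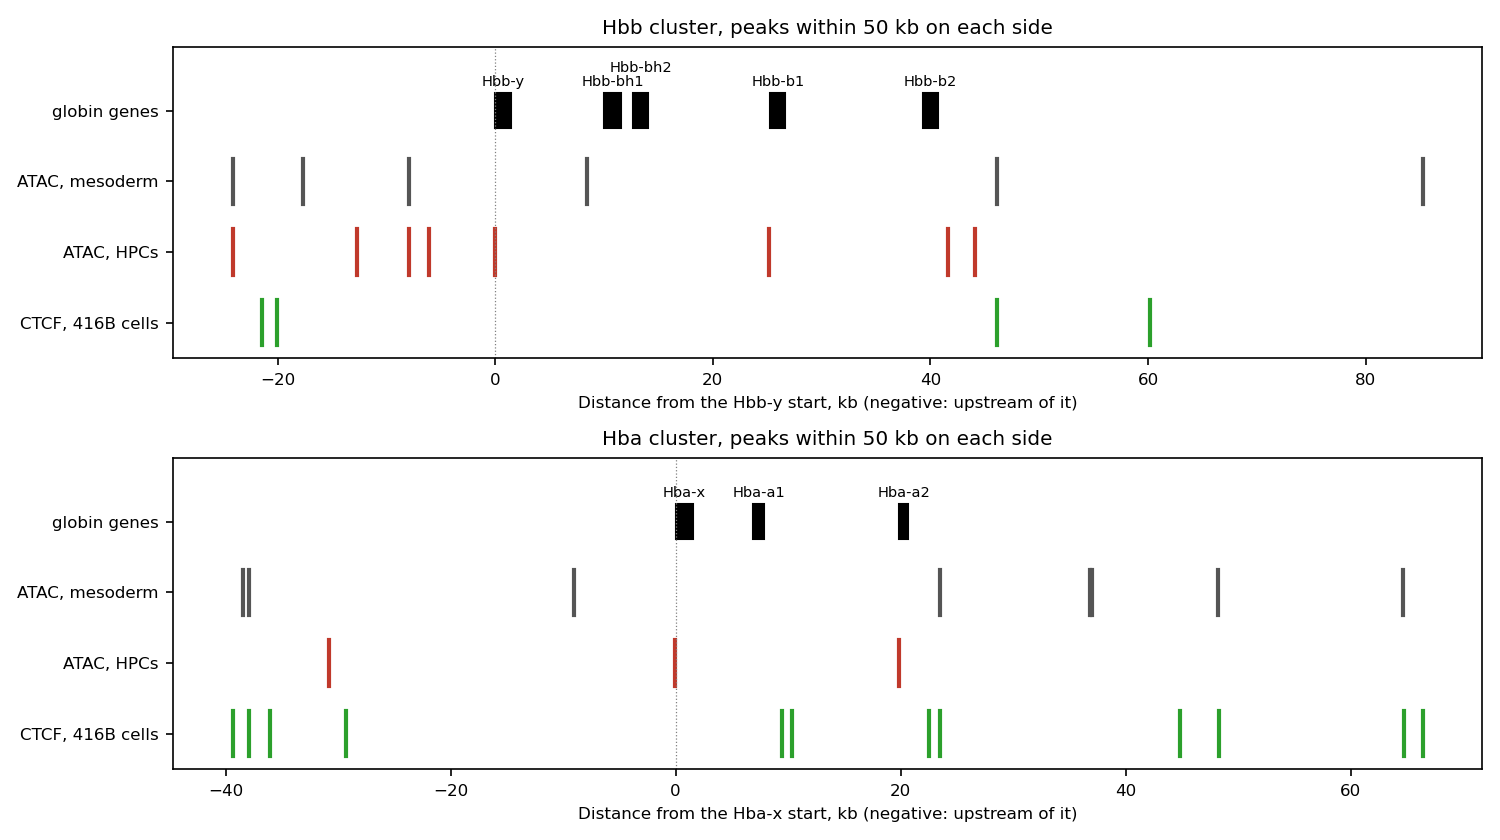
Positions of ATAC-seq peaks in wild-type mesoderm and HPCs and of CTCF peaks in 416B cells, as vertical bars at peak centers, against distance in kb from the start of Hbb-y (upper panel) or Hba-x (lower panel), with globin genes as black boxes drawn to scale. HPC peaks sit at the starts of Hbb-y, Hbb-b1, Hba-x and Hba-a2, and no mesoderm or CTCF peak does.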

How the data were processed

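RNA-seq reads were aligned to mm9 by the authors with STAR, duplicates were removed, and featureCounts gave the deposited raw counts over exons and introns, with a read in overlapping entries counted for each. The strand setting is not given in the sources used here. Peak positions (start and end, mm9) were deposited by the authors from MACS2 on merged libraries. Groups follow the labels. Counts were tested with edgeR 4.0.16 (TMM, filterByExpr with a minimum count of 10, quasi-likelihood test, Benjamini-Hochberg adjustment) and with DESeq2 1.42.0 as an alternative, in R 4.3.3, and genes were called at an adjusted p under 0.05 and an absolute log2 fold change above 1. The wild-type stage comparisons used 9 libraries, the knockout stage comparisons and interactions 21, the HPC genotype comparisons 12 and those of mesoderm 9. The code was tested on simulated counts. The p-values measure only the spread between these libraries, some of which share a clone.

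The members and lists were chosen with earlier results of these data known. Some listed genes are not reported here and were left out of the lists' counts and sums. Besides all members, the text names up to 5 genes of each list, taken by adjusted p among those called in wild-type HPCs against mesoderm, and the 5 genes most like Hba-x. The same clones gave mesoderm and HPC libraries, so these are paired by origin, and the deviations of a clone's mesoderm and HPC libraries from their group means correlated at -0.0691 to 0.188 over 9170 genes in the 9 clones. The fits were made without this block, and with it as an alternative. Other alternatives were the normalization, the filter on low counts, libraries of a clone summed, each library left out, and the distance and width limits of peaks. Sequence uniqueness was read from mm9 with pyfaidx 0.9.0.4.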

Additional observations from a re-analysis of the deposited data

How the results depend on the processing

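Of the alternative values computed for single genes and shares, 600 kept their direction and their side of the threshold, 27 changed sign, 3 became called, 3 lost their call and 3 moved by more than the spread. Of the counts of called genes and of peaks, 166 stayed within 1.5 times and 12 did not. In wild-type mesoderm against undifferentiated mESCs, 1 globin entry was called, 2 were with DESeq2, 2 with its size factors in edgeR and 2 without the filter, where Hba-x joined Hbb-bh1, and 0 to 1 with 1 library left out (0 without mesoderm B9.3 or without either undifferentiated library). Hba-a turned there from -1.73 to 1.0 with DESeq2, and neither value was called. With the clone as a replicate block, 4 instead of 5 entries were called in wild-type HPCs against mesoderm, since Hbb-b1 did not pass the filter among 7 libraries, and 5, 5, 0 and 0 in the other stage comparisons and interactions, so the block changed no other call.

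Between genotypes in HPCs, uncalled changes crossed 0 when 1 library was left out. In P1-CTCF-KO against wild type the log2 fold changes ran from -0.22 to 0.58 for Hba-x, -0.20 to 0.91 for Hbb-b1 and -0.41 to 0.50 for Hbb-bh1. In P2-CTCF-KO against wild type they ran from -0.53 to 0.10 for Hba-a, -0.092 to 0.48 for Hba-x, -0.11 to 0.45 for Hbb-bh1 and -0.12 to 0.60 for Hbb-y. In P2-CTCF-KO against P1-CTCF-KO they ran from -0.36 to 0.43 for Hba-x, -0.50 to 0.61 for Hbb-b1 and -0.30 to 0.62 for Hbb-bh1, and the interaction of Hbb-bh1 in P1-CTCF-KO from -2.48 to 2.01. Hbb-y in P1-CTCF-KO against wild type kept its sign, at 1.32 to 2.01. Scaled to the counts outside ribosomal RNA and several-loci entries, the ratio of P1-CTCF-KO to wild-type means was 0.836 for Hbb-bh1, 0.803 for Hba-x and 0.931 for Hba-a, against 1.10, 1.10 and 1.31. The cause was not tested. The adult beta share per unique position, chosen after seeing the data, was 5.85, 5.36 and 6.75%.

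Within 100 kb in place of 50, the mesoderm peaks numbered 11 at the beta-like and 16 at the alpha-like cluster, and the HPC peaks 5 at the alpha-like cluster. Among peaks wider than the median of their list, there were 3 mesoderm and 3 HPC peaks at the beta-like and 4 mesoderm peaks at the alpha-like cluster. Counts of 0 to 5 in mesoderm limit every ratio to that stage, and Hbb-b2, with 3 counts in all, could not be compared at this depth.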
